A study of Saccharomyces cerevisiae with 48 samples.

Results

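The 100 genes described here are those whose newly made RNA fell least when budding yeast lost the bromodomain proteins Bdf1 and Bdf2. They were chosen in strain RDY73 from newly made (T>C) read counts scaled to a fission yeast spike-in, as the 100 genes with the highest ratio of mean level after depletion to mean level before it. Of 6465 counted intervals, 6040 were nuclear genes outside non-coding names, and 2940 of those had the required 150 T>C reads or more over the 3 RDY73 DMSO libraries. The members are therefore 100 of 2940 genes that could have been chosen, and genes with little labelled RNA were never considered. The values that chose them serve as description, and the tests that bear on the members were run in the 7 other strains. Where genes are counted as lowered or raised in RDY73, the count is descriptive and is no test of the members.

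Bdf1 and Bdf2 are the BET (bromodomain and extra-terminal) proteins of budding yeast. They bind acetylated histones through paired bromodomains, BD1 and BD2, and work together with the general factor TFIID at promoters. Many genes that respond to stress or to nutrients depend in addition on sequence-specific activators, among them Msn2 and Msn4 for general stress, Yap1 for oxidants, Gcn4 for amino acid shortage, Hsf1 for misfolded protein and Hac1 for stress of the endoplasmic reticulum. SLAM-seq measures RNA made during a short pulse of 4-thiouracil (4tU), because alkylated 4tU is read as C where the genome has T.

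All 8 Saccharomyces cerevisiae strains carried pGPD1-OsTIR1:HIS3, BDF2-3xV5-mAID::KanMX and BDF1-3xV5-mAID::URA3, so that both endogenous proteins bear a degron tag that the auxin indole-3-acetic acid (IAA) turns into a signal for destruction. RDY73 had no other BDF1. The other strains had a further BDF1 copy from a plasmid at TRP1, which was unmodified in RDY234, mutated in BD1 in RDY235, in BD2 in RDY236 and in both in RDY237, without its B/BID stretch in RDY247, and with alanine in place of acidic ET domain residues in the remaining strains, 2 of them in RDY249 and 4 in RDY251. Cultures received 1 mM IAA or its solvent DMSO for 3 h and then 5 mM 4tU. Each strain and treatment had 3 libraries, lettered A to C and called biological replicates in the study's methods, giving 48 libraries in 16 groups. By the library numbers in the labels, RDY73, RDY247 and RDY249 belong to a later series than the other 5 strains, so effects of strain and of library series cannot be told apart for RDY247 and RDY249 against RDY234.

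Libraries held 3301563 to 10699839 S. cerevisiae reads and 336128 to 1242931 S. pombe reads. T>C reads, those with 2 or more T>C conversions, numbered 42821 to 1163027 in all and 13141 to 106343 over the 100 members. Levels below are T>C reads per 1000000 S. pombe reads, in which 1 read is worth between 0.805 and 2.98, and library values are given in the order A, B, C. Log2 changes come from an edgeR quasi-likelihood fit across 5118 genes with S. pombe size factors. The SE given with a log2 change is approximate, namely the absolute change divided by the square root of the F statistic of the test. A gene is called lowered or raised where it moved 2-fold or more with a Benjamini-Hochberg adjusted p below 0.05. Cultures that received no 4tU are not analysed here, and how often unlabelled RNA gives T>C reads was therefore not measured. Replicate B of RDY236 under DMSO had the most T>C reads of any library, and the results that rest on it are also given without it. As a check on labels, BDF1 total reads per 1000000 S. pombe reads averaged 1098 ± 245 (SD, n = 3) in RDY73 under DMSO and 2566 ± 62.2 (n = 3) in RDY234, which has the further copy.

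In RDY73 the ratio that chose the members ran from 0.528 for HSP12, a small heat shock protein of the plasma membrane, to 0.0736 for SKS1, a protein kinase gene. The median member ratio was 0.0975, a level 10.3-fold lower after depletion, against a median of 0.0211, or 47.4-fold lower, over the 2940 genes. Members just inside and just outside the boundary did not stand apart, with YBL028C at 0.0739, SKS1 at 0.0736, YGL114W at 0.0735 and ATP3 at 0.0733. By the same fit 99 of 100 members were lowered in RDY73, where 99.9% of all tested genes were. Those libraries chose the members, so these calls describe the choice and test nothing. "Least lowered" is thus a matter of degree: AAD6, the runner-up, stood at 714, 751 and 818 under DMSO and at 361, 265 and 221 under IAA, and TRX2, at rank 45, at 25211, 25254 and 28992 and at 2968, 2777 and 2221. When the rule was repeated without each RDY73 library in turn, 88 to 94 of the 100 genes were chosen again. With a minimum of 500 T>C reads in place of 150, 857 genes were left to choose from and 61 of the 100 members still met it. A higher minimum changes no ratio, so these 61 were bound to be chosen again. That count is no check of the choice.

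By function the members fell into a few groups, and 43 of 100 were in none of the gene lists used. The largest, from a list drawn up after the members were seen, were 20 genes of the oxidative and electrophile stress response of the Yap1 type, out of 41 such genes that could have been chosen. They include the thioredoxin TRX2 and its reductase TRR1, the glutathione transferases GTT2 and ECM4, the sulfiredoxin SRX1, the drug exporter FLR1 and the aryl-alcohol dehydrogenase relative AAD6. Lists drawn up after the members were seen also gave 9 of 46 amino acid biosynthesis genes, among them ASN1, HIS5 and ARG4. From the same kind of list came 5 of 21 unfolded protein response genes, namely the activator gene HAC1, the chaperone gene KAR2, ERO1, ALG7 and KEG1.

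The other lists were fixed before the counts were read here, though with earlier results of these data known. They gave 9 of 22 glycolytic and ethanol-forming genes (FBA1, ENO1, PDC1, TDH1, CDC19, ADH1, TDH2, ENO2 and GPM1) and 7 of 32 general stress genes (HSP12, DDR2, ECM4, STF2, PNC1, HOR7 and YGP1). They also gave 4 of 34 Hsf1-target chaperone genes (HSP12, UBI4, KAR2 and ERO1) and 3 of 22 nitrogen-regulated genes (AGP1, LAP3 and PEP4). Of 137 cytosolic ribosomal protein genes that could have been chosen, 1 was a member, RPL41B. No histone, hexose transporter, translation elongation factor or pheromone gene of the lists was. SUA7, which encodes the general factor TFIIB, was a member with a ratio of 0.0939. Because the lists and the members were settled with earlier results of these data known, these counts describe the members and test nothing.

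The upstream sequence of the members is a property that the rule did not use. In the 500 bases before the start codon, from the R64 genome, TTACTAA, the element bound by Yap1, was present on either strand in 40 of 99 member windows (40.4%), in 12.2% of the windows of the other 2840 genes that met the T>C minimum and in 11.8% of all 6035 nuclear windows. At least 2 matches were present in 14.1% of member windows against 0.880%. The list of Yap1-type genes accounted for 13 of the 40, and 27 lay outside it, among them TDH1, HAC1, ALG7, SUA7 and YGP1. The windows of divergent neighbours share sequence, so the 59 matches lay at 56 distinct sites. The examples below, each 15 bases to either side of a match with the match in capitals, come from PST2 (a flavodoxin-like protein), HBN1 (a nitroreductase relative), FLR1, ECM4 and GTT2, which belong to the Yap1-type list, and are shown so that the element can be read in its surroundings.
PST2: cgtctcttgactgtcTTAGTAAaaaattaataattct
HBN1: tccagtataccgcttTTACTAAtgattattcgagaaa
FLR1: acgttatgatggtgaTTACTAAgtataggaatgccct
ECM4: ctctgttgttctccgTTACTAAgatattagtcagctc
GTT2: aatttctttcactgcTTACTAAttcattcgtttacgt
These lie at chrIV:504939-504975 (minus strand), chrIII:74199-74235 (minus), chrII:254553-254589 (minus), chrXI:582089-582125 (plus) and chrXII:21916-21952 (minus) of R64, each read 5′ to 3′ in the direction of its gene. In PST2 the match is the reverse complement, TTAGTAA.

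The stress element AGGGG was present in 54.5% of member windows, in 32.2% of the other genes' and in 34.0% of all, and at least 2 matches were present in 18.2% against 7.08% of the other genes'. All 7 general stress members had a match. HSP12, the member with the highest ratio, is shown over the stretch that ends 100 bases before its start codon (chrVI:106856-107155, plus strand), with AGGGG, its reverse complement CCCCT and TATAAA in capitals.
HSP12: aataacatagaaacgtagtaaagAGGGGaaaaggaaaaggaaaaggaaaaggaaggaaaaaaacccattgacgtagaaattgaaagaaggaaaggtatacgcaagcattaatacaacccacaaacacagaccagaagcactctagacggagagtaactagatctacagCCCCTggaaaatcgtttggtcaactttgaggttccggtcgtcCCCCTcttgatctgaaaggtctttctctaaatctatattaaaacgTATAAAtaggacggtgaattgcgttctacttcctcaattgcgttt

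The Gcn4 element TGACTC was present in 16.2% of member windows, 11.5% of the other genes' and 12.7% of all, with 6 of the 9 amino acid biosynthesis members having a match. The Hac1 element CAGCGTG was present in 10 member windows (10.1%), in 1.73% of the other genes' and in 2.32% of all, and those 10 windows held 9 distinct sites. Only 1 of the 5 unfolded protein response members, KAR2, had a match. Shown for these elements are ASN1 (chrXVI:822378-822413, plus strand), HIS5 (chrIX:142711-142746, plus) and ARG4 (chrVIII:141561-141596, minus) with TGACTC in capitals, and KAR2 (chrX:381152-381188, plus) with CAGCGTG in capitals.
ASN1: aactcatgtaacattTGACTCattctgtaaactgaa
HIS5: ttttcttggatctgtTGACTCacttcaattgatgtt
ARG4: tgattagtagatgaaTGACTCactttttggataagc
KAR2: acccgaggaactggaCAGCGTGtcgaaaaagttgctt
Of the 5 other elements searched, TATAAA was present in 69.7% of member windows and 60.6% of all, GAANNTTC (Hsf1) in 26.3% and 19.1%, CACGTG (Cbf1) in 10.1% and 6.21%, ACCCNNACA (Rap1) in 8.08% and 5.43%, and ACGCGT (the MBF cell cycle factor) in 4.04% and 5.40%. No motif contains another in full, and matches on both strands were counted. A match is a run of letters and was not examined for binding.

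**Figure D1:**
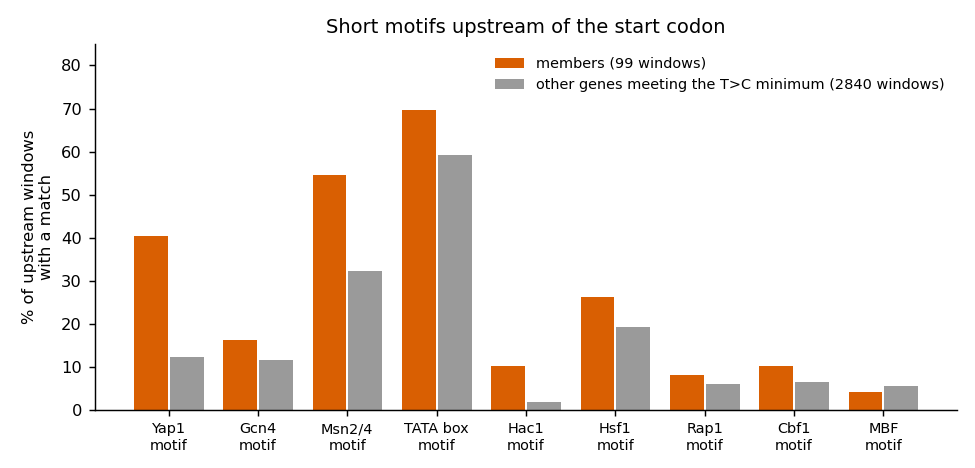
Share of upstream windows of 500 bases (y axis, %) that hold at least 1 match of each of 9 motifs on either strand (x axis), for 99 member windows and for the windows of the 2840 other genes that met the T>C minimum. The Yap1 element was present in 40.4% and 12.2%, the Msn2/4 element in 54.5% and 32.2% and the Hac1 element in 10.1% and 1.73%.

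Level, length and position were compared next. In RDY234 under DMSO, which the rule did not use, the median member had 282 T>C reads per 1000000 S. pombe reads against 191 for the other genes that met the minimum, and 1660 total reads against 981. The share of its reads that carried T>C conversions was 23.0% against 20.4%, with member quartiles of 8.39% and 37.3%. The counted interval had a median length of 1292 against 1441 bases and 29.5 against 28.7 T per 100 bases. A directly neighbouring gene was also a member for 13 of 100 members, compared with 2.89% of the other genes, as for HBN1, FRM2 and AGP1 on chromosome III. Within 15 kb of a chromosome end lay 3 members (3.00%) and 0.211% of the other genes. Of the members 14 had an interval that overlapped a neighbour on its own strand, as did 16.4% of the other genes.

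The members made up a larger part of all newly made RNA under IAA than under DMSO in every strain. The rise was smallest with unmodified BDF1. With unmodified BDF1 (RDY234) they gave 8.40 ± 0.265% of nuclear T>C reads under DMSO and 9.14 ± 0.102% under IAA (SD, n = 3). The share rose from 14.1 ± 0.128% to 29.6 ± 0.415% in RDY251 and from 11.3 ± 0.0299% to 19.0 ± 1.82% in RDY237. It also rose in RDY247, from 10.5 ± 0.231% to 16.7 ± 1.28%, and in RDY249, from 10.5 ± 0.344% to 18.7 ± 0.245%. The 3 IAA libraries lay above the 3 DMSO libraries in each of these strains, and in RDY235 and RDY236. In RDY234 they ran from 9.03% to 9.22%, against 8.10% to 8.59% under DMSO. In RDY73, whose libraries chose the members, the shares were 11.3 ± 0.422% and 31.7 ± 0.573%. In RDY235 and RDY236 they moved from 9.36 ± 0.121% to 10.8 ± 0.159% and from 9.68 ± 0.303% to 12.5 ± 0.173%. A sizeable part of these reads came from TRX2 and its neighbour YGR210C. In RDY249 replicate A they gave 13290 and 11863 of 85773 member T>C reads under DMSO. Under IAA they gave 9917 and 8966 of 58428. In RDY251 replicate A these were 6967 and 5862 of 60317, and 2636 and 2244 of 24673. The share without these 2 genes was not calculated.

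**Figure D2:**
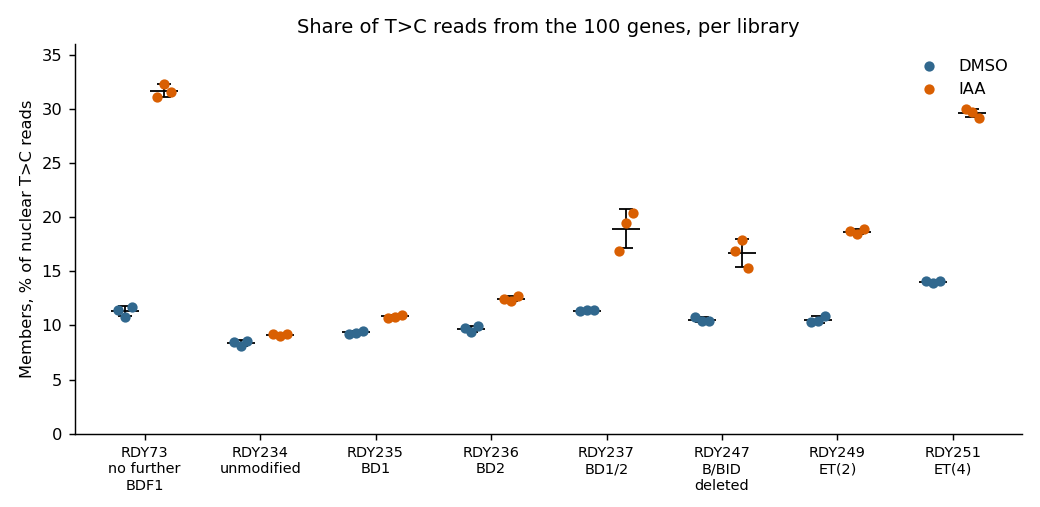
Part of nuclear T>C reads that came from the 100 members (y axis, %) in each library (points), by strain and treatment, with the mean and SD of 3 libraries in black. IAA libraries average 9.14% in RDY234, 19.0% in RDY237, 18.7% in RDY249, 29.6% in RDY251 and 31.7% in RDY73, the strain that chose the members. In RDY249 IAA replicate A, TRX2 gave 9917 and YGR210C 8966 of the 58428 member T>C reads.

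Per S. pombe read, no member was called where BDF1 was unmodified, and the median member fell by less than the median gene in RDY236, RDY237, RDY247, RDY249 and RDY251. These are bulk cultures, in which a level per S. pombe read alone cannot tell fewer S. cerevisiae cells from less RNA per cell. The share of S. cerevisiae reads that carried T>C conversions does not use the spike-in. In RDY251 it was 7.09% to 8.05% under DMSO and 1.89% to 2.22% under IAA. The S. pombe share there was 2.26% to 2.53% and 2.06% to 2.16%. In RDY234 the S. cerevisiae shares overlapped, at 8.09% to 10.2% and 9.29% to 10.0%. How far cell number contributed was not tested. In RDY234 no member was lowered or raised by IAA, as for 0% of all tested genes in either direction, and 7 had an unadjusted p under 0.05. The median log2 change was 0.06 for members and -0.04 for all 5118 genes. In RDY235 no member was lowered (0% of all genes), 10 had an unadjusted p under 0.05, and TDH1 was the 1 member raised (0.0195% of all genes). Its call was lost without any 1 of 3 libraries, DMSO B, DMSO C or IAA B. The medians in RDY235 were 0.05 and -0.18.

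With both bromodomains mutated (RDY237), 19 of 100 members were lowered against 90.4% of all genes, with a median member change of -0.61, or 1.53-fold, against -1.61, or 3.05-fold. In RDY247 9 members were lowered against 76.5%, with medians of -0.43 and -1.30, and 15 were lowered without its IAA replicate B. In RDY249 42 were lowered against 94.5%, with medians of -0.90 and -1.81. In RDY251, the most affected of these strains, 91 members were lowered against 99.1%, and the medians were -1.86, or 3.64-fold, and -3.48, or 11.1-fold. The direction depends on the scaling: with TMM, which centres on the S. cerevisiae genes themselves and so leaves the median of all genes between -0.13 and 0.01, no member was lowered in any of these 4 strains, and the member medians became 1.52 in RDY251, 0.99 in RDY237, 0.89 in RDY249 and 0.86 in RDY247. Of the 100 members, 98 exceeded the all-gene median in RDY237 and RDY247 and 99 did in RDY249 and RDY251, compared with 76 in RDY234 and 91 in RDY235. Member medians above 0 under TMM therefore follow from its centring and are no separate result. The study scaled its 3 h experiments on spike-in reads because it expected large changes in total reads.

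**Figure D3:**
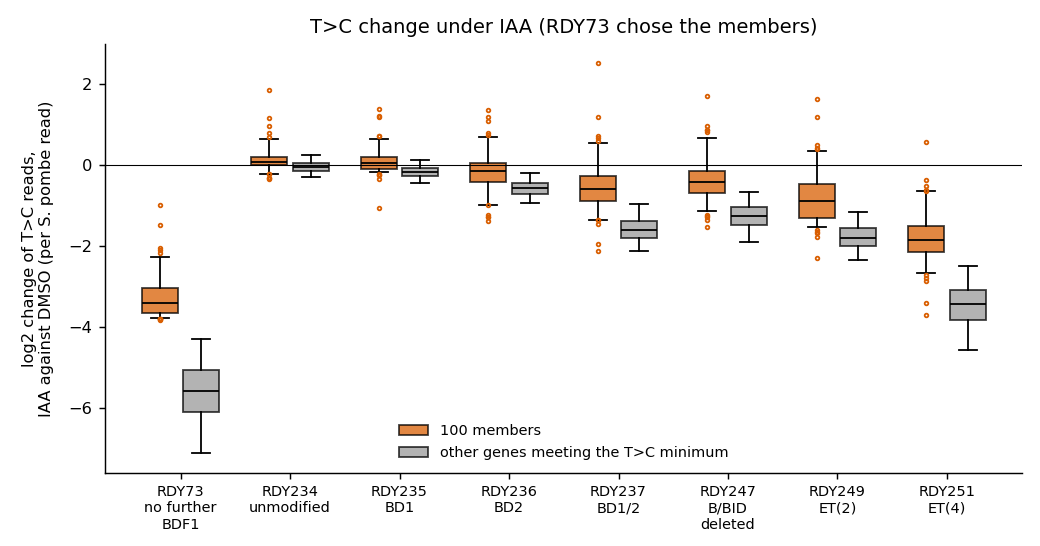
Log2 change of T>C reads per S. pombe read, IAA against DMSO (y axis), in each strain (x axis), for the 100 members and for the 2840 other genes that met the T>C minimum. Boxes span the quartiles, whiskers the 5th to 95th percentile, and member points beyond them are shown. Member medians are 0.06 in RDY234, -0.61 in RDY237, -0.90 in RDY249 and -1.86 in RDY251, and turn positive in each variant when TMM replaces the S. pombe scaling. RDY73 chose the members.

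Few members were raised by IAA while most genes fell. HSP12 was raised in RDY236, RDY237, RDY247 and RDY249, TDH1 in RDY235, RDY236 and RDY237, and DDR2, a small stress protein gene, in RDY236 and RDY249, the latter call being lost without DMSO replicate B or IAA replicate C. Members raised numbered 0 in RDY251 (0.0195% of all genes), 2 in RDY237 (0.0586%), 2 in RDY249 (0.0782%) and 1 in RDY247 (0.117%). No member of these was called in the opposite direction in another of the 7 strains.

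HSP12 was the extreme of the set (chrVI:107256-107835, plus strand). In RDY237 it stood at 19.5, 16.3 and 2.16 under DMSO and at 66.4, 78.8 and 87.2 under IAA, without overlap, a log2 change of 2.50 ± 0.43 (SE) with an adjusted p of 1.17e-07. Those DMSO levels rest on 10, 10 and 1 T>C reads. In RDY249 the levels were 108, 128 and 196 against 585, 380 and 342 (1.62 ± 0.28, adjusted p = 1.02e-07). In RDY251 they were 27.2, 41.7 and 60.1 against 39.5, 73.2 and 78.9, where the groups overlapped and HSP12 was not called (0.57 ± 0.33, adjusted p = 0.0884). RDY234 had 5.81, 3.87 and 1.90 against 15.0, 12.7 and 15.7, a few reads per library, with a change of 1.85 ± 0.77 that was not called at an adjusted p of 1.00. The spike-scaled HSP12 level in DMSO thus differed widely between strains.

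HSP12 T>C reads were few relative to its total reads. In RDY73 under IAA, 462 of 380292 HSP12 reads carried T>C conversions (0.121%), and DDR2 (0.156%), HOR7 (0.180%) and RPL41B (0.212%) were also low. Among the 153 other genes with 20000 or more total reads in that group, the lowest share was 0.0819% and the 10th percentile 0.171%, with a median of 0.359%. In RDY237 under IAA the HSP12 share was 0.237%, below the lowest of the other abundant genes (0.578%). Whether the T>C reads of such abundant RNAs come from labelled RNA was not tested.

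TDH1, a minor glyceraldehyde-3-phosphate dehydrogenase gene, stood at 129, 106 and 149 under DMSO and at 248, 302 and 342 under IAA in RDY237 (log2 1.18 ± 0.22, adjusted p = 7.58e-07). All IAA libraries lay above all DMSO libraries. In RDY251 the order was reversed, at 131 to 207 against 81.1 to 121 (-0.63 ± 0.22, adjusted p = 0.00495), a fall too small to be called at 2-fold, which under TMM became a rise of 2.77. TDH1 and TDH2, like ENO1 and ENO2, belong to families of related genes, and the reads that mapped to more than 1 place were 0.343%, 0.177%, 0.380% and 0.297% of theirs.

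The 8 members that were not lowered in any of RDY237, RDY247, RDY249 and RDY251 were AAD6, ARN1, DDR2, ENO1, HSP12, LAP3, PST2 and TDH1, a class that held 0.645% of all tested genes. In contrast, 6 were lowered in all 4 (74.4% of all genes), namely ENO2, ERG9, NCE103, OSI1, RNR4 and URA2. Of the others, 51 were lowered in 1 of the 4 strains (3.56%), 19 in 2 (4.83%) and 16 in 3 (16.6%). All 19 members lowered in RDY237 and all 9 lowered in RDY247 were also lowered in RDY249, as were 98.5% and 99.2% of all genes lowered in those strains. In both RDY237 and RDY247 6 members were lowered, or 31.6% of the 19 and 66.7% of the 9, against 82.9% and 97.9% of all genes lowered in each. The variants' contrasts use separate libraries within each strain.

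NCE103, the carbonic anhydrase gene, had the largest fall of a called member in RDY237, RDY247 and RDY249. It stood at 335, 1402 and 454 under DMSO and at 223, 107 and 184 under IAA in RDY237 (log2 -2.14 ± 0.35, adjusted p = 4.81e-08). Without DMSO replicate B the RDY237 fall was -1.24, and SKS1 had the largest at -2.02, as it did without IAA replicate C (-2.57). In RDY247 the largest fall passed to RNR4 without DMSO replicate A or IAA replicate B and to OSI1 without IAA replicate A, while in RDY249 NCE103 kept the largest without any 1 library. Its libraries of 1 group spread widely, as in RDY234 under IAA, at 810, 303 and 1029. ERG9, squalene synthase of the sterol pathway, had the largest in RDY251, from 51.4, 35.4 and 55.1 to 2.97, 2.87 and 4.21 (-3.71 ± 0.41, adjusted p = 1.36e-14), and came after NCE103 only without DMSO replicate A. Under TMM neither fall was called in the strains where it was the largest.

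In RDY236 4 members were lowered (5.20% of all genes), PDC1, CDC19 and ENO2 of glycolysis and FPR1, the FK506-binding prolyl isomerase, and 3 were raised (0.0977%). The member median was -0.15 against -0.58. These falls rested on 1 library. FPR1 stood at 276, 1061 and 238 under DMSO and at 203, 188 and 199 under IAA, and FBA1 at 1977, 5342 and 2493 and at 1437, 1638 and 1870. Replicate B was the high one in both. Without that library no member was lowered, while without DMSO replicate A 10 were, and without DMSO or IAA replicate C 7 were. The 3 raised members went to 1 without DMSO replicate A or C or without IAA replicate C.

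The changes given next for single genes are per S. pombe read, and every fall among them in RDY251, like those of FBA1 and KAR2 in RDY237 and of HOR7 in RDY249, turned positive under TMM. Among the 7 general stress members, the median change in RDY237 was 0.14, with none lowered and HSP12 raised, against -1.06 for the 44 other tested genes of the list, of which 23 were lowered. In RDY251 the median was -1.67, with 5 of 7 lowered, against -2.57 with 42 of 44 lowered. ECM4 stood at 290, 340 and 391 under DMSO and at 75.1, 109 and 138 under IAA in RDY251 (-1.67 ± 0.23, adjusted p = 6.88e-11), with no overlap. HOR7, a small stress-induced protein gene that was chosen here after its values were seen, spanned a wider range of levels. It went from 525, 705 and 1070 to 95.9, 182 and 215 in RDY251 and from 5463, 3917 and 5459 to 4907, 3297 and 4066 in RDY249, where the groups overlapped.

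The 20 Yap1-type members had a median change of -0.53 in RDY237, with 2 lowered, and of -1.79 in RDY251, with 18 lowered. The 29 other tested genes of that list had medians of -0.99 (14 lowered) and -2.65 (28 lowered). AAD6 stood at 742, 779 and 922 under DMSO and at 1028, 1369 and 1710 under IAA in RDY237, all IAA libraries being above all DMSO libraries, but the change of 0.71 ± 0.20 was under 2-fold (adjusted p = 0.000672). In RDY251 it stood at 606, 701 and 726 against 389, 433 and 476 (-0.65 ± 0.20, adjusted p = 0.00179). AAD6 belongs to a family of related AAD genes, and 0.777% of its reads mapped to more than 1 place.

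PST2 and HBN1 came next by rank in the Yap1-type group. PST2 went from 1269, 1264 and 1438 to 555, 664 and 818 in RDY251, a change of -0.96 ± 0.20 that fell just short of 2-fold (adjusted p = 5.18e-06), and from 1441, 1496 and 1318 to 1618, 1941 and 2373 in RDY237. HBN1 went from 1783, 1960 and 2249 to 569, 541 and 729 in RDY251 (-1.70 ± 0.21, adjusted p = 4.02e-12). TRX2, picked after its values were seen as the most highly labelled of the group, was nearly level in RDY234, at 10316, 9291 and 10227 against 11535, 9939 and 10209. In RDY251 it fell from 10537, 10518 and 12815 to 2606, 2928 and 3443 (-1.92 ± 0.21, adjusted p = 2.34e-14).

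For the 9 glycolytic members the medians were -0.77 in RDY237 (3 lowered, TDH1 raised) and -1.82 in RDY251 (7 lowered), against -1.34 (10 of 14 lowered) and -3.08 (14 of 14) for the rest of the list. FBA1, the aldolase gene, went from 2280, 2371 and 2168 to 1478, 1343 and 1562 in RDY237 (-0.68 ± 0.20, adjusted p = 0.00115) and from 1567, 1646 and 1777 to 576, 640 and 769 in RDY251 (-1.33 ± 0.20, adjusted p = 2.92e-09). Of the enolase genes, ENO2, the one most used on glucose, went from 1898, 2101 and 2408 to 332, 430 and 433 in RDY251 (-2.42 ± 0.22, adjusted p = 1.81e-18), whereas ENO1 went from 139, 166 and 224 to 76.1, 90.4 and 134 (-0.81 ± 0.24, adjusted p = 0.00123). The difference between the copies was not tested.

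The 9 amino acid members had medians of -0.88 in RDY237, with 1 lowered, and -2.12 in RDY251, with 9 lowered, against -1.50 (55 of 67 lowered) and -3.02 (64 of 67). LYS20, homocitrate synthase, went from 963, 1064 and 1244 to 297, 366 and 369 in RDY251 (-1.67 ± 0.20, adjusted p = 2.21e-13), and SER3, of serine synthesis, from 66.5, 61.9 and 98.5 to 14.8, 17.2 and 22.1 (-2.04 ± 0.30, adjusted p = 7.59e-10). The interval of SER3 shares 327 bases with SRG1, the RNA transcribed across its promoter.

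Of the 5 unfolded protein response members, 2 were lowered in RDY237 (median -0.69, against -1.51 and 29 of 33 for the rest of the list) and 5 in RDY251 (-2.60, against -3.31 and 33 of 33). KAR2, the BiP chaperone of the endoplasmic reticulum, went from 1563, 1487 and 1530 to 655, 636 and 692 in RDY237 (-1.24 ± 0.21, adjusted p = 5.05e-08), and from 811, 866 and 1035 to 123, 143 and 176 in RDY251 (-2.62 ± 0.22, adjusted p = 2.41e-20). ALG7, which starts N-glycan synthesis, moved less, from 179, 204 and 219 to 210, 229 and 276 in RDY237 (0.21 ± 0.20, adjusted p = 0.291) with overlap. HAC1 itself went from 445, 522 and 479 to 120, 99.0 and 117 in RDY251 (-2.10 ± 0.22, adjusted p = 2.79e-15).

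The 4 Hsf1-target members had medians of -0.69 in RDY237 and -2.17 in RDY251, against -1.68 and -3.43 for the rest. UBI4, the polyubiquitin gene, went from 133, 140 and 157 to 35.6, 34.4 and 57.8 in RDY251 (-1.73 ± 0.22, adjusted p = 1.09e-11). The 3 nitrogen-regulated members had medians of -0.34 and -1.31 against -1.35 and -2.76. LAP3, an aminopeptidase gene, stood higher under IAA in RDY237, at 506, 439 and 353 against 783, 585 and 742 (0.66 ± 0.21, adjusted p = 0.0023), short of 2-fold. In each of these lists the members had the higher median in both strains, an order that the choice of members in RDY73 favours.

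Compared with RDY234 under IAA, members differed in both directions in RDY237, RDY247 and RDY249, with medians near 0, and most were lower in RDY251. Single members ranged from -2.50 to 4.94 in RDY249, while RDY247 spanned -1.99 to 4.02 and RDY237 -2.59 to 2.36, and 60, 51 and 53 of them had an unadjusted p under 0.05. In RDY237 8 members were lower (83.7% of all genes) and 8 higher (0.430%), with a median difference of -0.16 against -1.54. In RDY247 7 were lower (64.6%) and 11 higher (1.02%), with medians of -0.14 and -1.22, and in RDY249 10 were lower (65.8%) and 13 higher (1.13%), with medians of -0.13 and -1.27 and 17 lower without RDY249 IAA replicate A. In RDY251 86 were lower (99.2%) and HSP12 was higher (0.0391%), with medians of -2.02 and -4.39. Under TMM these lower members numbered 1, 0, 1 and 0 in that order. The direction again rests on the spike-in scaling, because TMM centres on the median gene, which most members exceeded here.

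In the single bromodomain variants under IAA, RDY235 had NCE103 lower (0.0391%) and YGP1, a secreted glycoprotein gene, higher (0.0977%). The NCE103 call was lost by DESeq2 and without any 1 of the 6 libraries compared other than RDY234 IAA replicate B. RDY236 had 0 members lower (1.45%) and 8 higher (0.488%). The 8 were HSP12, TDH1, DDR2, STF2, YGP1, HOR7, YMR090W and AAD6. The RDY235 medians were 0.28 for members and -0.04 for all genes, and those of RDY236 were 0.31 and -0.21.

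Before any IAA was given, some members already stood higher than in RDY234 in 5 of the 6 variants. Under DMSO no member was raised in RDY235 (0.0586%), 4 were in RDY251 (0.371%), 11 in RDY237 (0.606%), 14 in RDY236 (1.86%), 17 in RDY247 (3.22%) and 38 in RDY249 (14.4%). In RDY251 3 members, SKS1, MRM1 and YNL143C, were lower (42.0%), and the medians were -0.08 for members and -0.94 for all genes. The RDY236 count fell to 4 without its DMSO replicate B and rose to 25 without replicate A. The RDY237 count was 19 without RDY234 DMSO replicate A and 6 without replicate B, and in RDY251 6 members were lower without its DMSO replicate C and 5 without that of RDY234. HSP12 was higher by 4.17 ± 0.56 in RDY247 and by 5.17 ± 0.52 in RDY249 on the log2 scale, and DDR2 by 4.12 ± 0.40 and 4.47 ± 0.39. RDY234 under DMSO had few T>C reads, at 3, 2 and 1 for HSP12 and 11, 5 and 4 for DDR2. RDY73 under DMSO, of the later series, had 190, 129 and 142 for HSP12 and 371, 284 and 227 for DDR2. The minimum of the rule was set on those RDY73 reads, so it favours genes high in them. Because the general stress genes differ in this way between strains of different library series, strain and library series cannot be told apart for RDY247 and RDY249. In RDY236 and RDY251, of the same series as RDY234, HSP12 was higher by 2.88 ± 0.65 (adjusted p = 0.0021) and 3.39 ± 0.60 (adjusted p = 2.56e-06). The RDY236 difference rested on its DMSO replicate B, without which it was 1.06 and not called.

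The response to IAA itself, meaning the change from DMSO, was compared between each variant and RDY234 by an interaction term. It was more negative in 94 members in RDY251 (99.0% of all genes), 47 in RDY249 (92.8%), 19 in RDY237 (88.1%) and 8 in RDY247 (69.8%). The RDY247 count was 17 without RDY234 DMSO replicate A and 14 without RDY247 IAA replicate B. No member's response was called more positive in these strains, and none was called in RDY235 (0%) or RDY236 (0%), where 1 and 16 had an unadjusted p under 0.05. Under TMM the calls in those 4 variants were all positive instead, at 79, 31, 37 and 21 in the same order. In RDY236 9 members were called more negative without its DMSO replicate A and 6 without replicate C. With all libraries, NCE103 had the most negative difference in RDY251 (-4.36), RDY249 (-3.25), RDY237 (-3.08) and RDY247 (-2.48). Each of these differences subtracts the same RDY234 change, so they are not independent of one another. In RDY234 NCE103 stood at 339, 292 and 468 under DMSO and at 810, 303 and 1029 under IAA.

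Total reads, which also hold RNA made before labelling, changed far less. In RDY251 the median member change was -0.20 against -1.59 for all genes, and 2 members were lowered (81.1% of all genes), HNT1, an adenosine 5′-monophosphoramidase gene, and VID27, both of which turned positive under TMM (0.40 and 0.53). In RDY237 NCE103 was lowered (24.2%), though its change was -0.11 without DMSO replicate B and short of 2-fold without IAA replicate B, with medians of 0.16 and -0.78, and no member was in RDY247 (12.3%), RDY249 (19.4%), RDY236 (0.313%), RDY235 (0%) or RDY234 (0%). In RDY73, whose total reads contain the T>C reads that chose the members, 12 were lowered (89.3%) and 6 raised (0.879%), with medians of -0.35 and -2.32.

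Total reads of 9 members were raised in at least 1 of the 7 strains: HSP12, DDR2, TDH1, YGP1, STF2, HOR7, AAD6, ENO1 and YMR090W. Members raised numbered 2 in RDY234 (0.0391%), 4 in RDY235 (0.117%), 6 in RDY236 (0.293%), 4 in RDY251 (0.625%), 8 in RDY237 (0.645%), 9 in RDY249 (0.723%) and 9 in RDY247 (0.860%). The 2 in RDY234, HSP12 (1.54 ± 0.20, adjusted p = 2.78e-06) and DDR2 (1.29 ± 0.20, adjusted p = 8.52e-05), were raised with BDF1 unmodified, and were the only genes called there.

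HSP12 total reads per 1000000 S. pombe reads were 3074, 5262 and 3200 under DMSO and 26203, 30614 and 41923 under IAA in RDY237, a log2 change of 3.05 ± 0.21 (adjusted p = 8.97e-17). In RDY251 they were 13138, 15366 and 20815 against 41730, 47673 and 50109 (1.50 ± 0.19, adjusted p = 7.10e-10). TDH1 total reads were 2517, 1879 and 2552 against 5248, 5129 and 7392 in RDY251 (1.35 ± 0.16, adjusted p = 7.77e-11), and AAD6 total reads 1639, 1643 and 1732 against 2927, 3600 and 3596 (1.01 ± 0.15, adjusted p = 1.74e-08). The direction was therefore opposite in T>C reads and total reads for TDH1 and AAD6 in RDY251, where the T>C falls were under 2-fold, and this held only with the S. pombe scaling, since TMM turned the T>C changes positive (2.77 and 2.76). TRX2 total reads in the same libraries were 43654, 41027 and 49550 against 36590, 39785 and 44162, with overlap (-0.16 ± 0.17, adjusted p = 0.359).

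**Figure D4:**
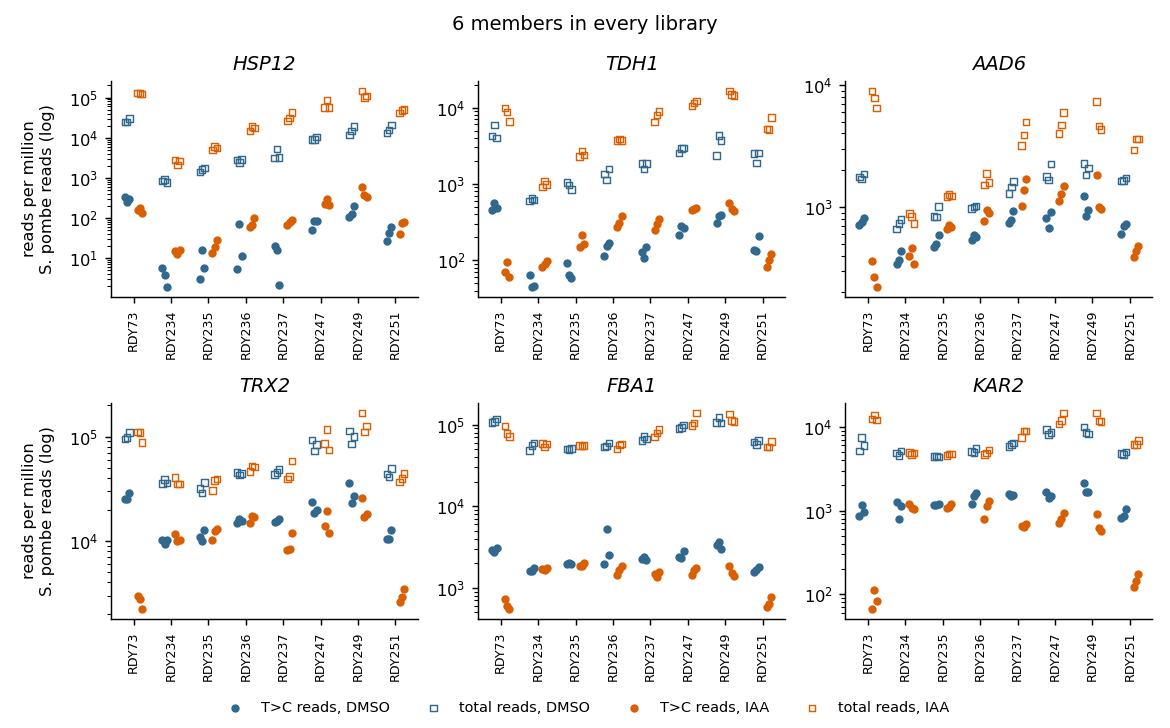
T>C reads (filled) and total reads (open), in reads per 1000000 S. pombe reads (y axis, log scale), of 6 members in each of the 48 libraries, by strain (x axis) and treatment. In RDY251, TRX2 T>C reads fall from 10518 to 12815 under DMSO to 2606 to 3443 under IAA (log2 -1.92, but 1.49 under TMM) while its total reads overlap, and HSP12 total reads average higher under IAA in every strain.

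A few members carry reads of uncertain origin. The intervals of 14 share bases with another, the longest overlaps being YGL088W with SNR10 (466 bases), YOL013W-A with a non-coding RNA gene (352 bases) and SER3 with SRG1. Over the 86 without an overlap, 2 were lowered in RDY236 in place of 4. The intervals of YGR210C and TRX2 lie 25 bases apart, and YGR210C had 0.773 to 0.920 times the reads of TRX2 in every library. YGR210C reads covered 6.39 T positions each against 31.0 for TRX2 and a member median of 38.6. QRI7 reads covered 3.00 T positions each and 28.4% mapped to more than 1 place, and for YNL143C these were 8.69 and 9.82%. For the other 98 members the share of multiply mapped reads was under 1.5%.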

How the data were processed

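The authors trimmed reads with fastp 0.23.2 and aligned and counted them with SLAM-DUNK 0.4.3, per the labels and the study's methods. Deposited were raw read counts per interval and library, neither pooled nor normalized: total read counts and T>C read counts (2 or more conversions). Intervals are R64 genes with 250 bases added at the 3′ end. Conversion rates in the same files were not used. S. pombe size factors were medians of ratios over 4955 genes. One edgeR 4.0.16 quasi-likelihood model (R 4.3.3) held all 48 libraries with 1 coefficient per group, for the 5118 genes that averaged 10 or more T>C reads, and p-values were adjusted over all of them. The script was tested on simulated data for RDY251 over 5118 genes. It called 31 of 50 genes lowered 2-fold, 50 of 50 lowered 4-fold, 50 of 50 lowered 8-fold and 2 of 4918 unchanged genes. The simulation used RDY234 levels and the same spread for every gene, and left most genes unchanged. It therefore does not give error rates for RDY251, where 99.1% of all genes were lowered. The replicates are 3 libraries per group, and all 16 groups share 1 estimate of a gene's spread. A p-value therefore reflects the spread between replicates pooled over the groups, and not only that of the libraries compared. Motifs, upstream windows and printed sequences were read from the R64 genome with Python 3.11.15 and pandas 2.3.3.

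The members and lists were chosen with earlier results of these data known, and the Yap1-type, amino acid and unfolded protein lists after the members were seen. Genes named by rule were the 15 highest ratios, members raised by IAA, the largest fall in each strain, the 3 highest ratios in each list with 3 or more members, and the genes at the boundary. The result of 1 gene that the rule named is not reported here. Other members named were picked after their values were seen. Alternatives were the scaling, DESeq2 1.42.0, the count minimum, a replicate block, each library left out, and, chosen after seeing the data, members without overlapping intervals.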

Additional observations from a re-analysis of the deposited data

Results flagged for a closer look

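The response of members to IAA differed from that in RDY234, by the interaction term of the edgeR fit, in 94 members in RDY251, 47 in RDY249, 19 in RDY237 and 8 in RDY247. All these differences were negative per S. pombe read, and each subtracts the change in the same RDY234 libraries. No gap test for a single outlying sample was run, since it needs groups of 4 or more, and each library was left out in turn instead.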

How the results depend on the processing

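The scaling decides the direction of the log2 changes, because TMM puts the median gene near 0 and most members lie above that gene. The share of a gene's reads that carried T>C conversions uses neither scaling. Its member median was 7.10% in RDY251 under IAA and 23.2% in RDY234 under IAA. For the other genes that met the T>C minimum these medians were 4.14% and 20.4%. These medians compare strains under IAA and not IAA with DMSO within a strain, so they do not settle the direction of those changes. The share also depends on total reads. Under TMM, members lowered and raised by IAA in T>C reads numbered 0 and 84 in RDY251, 0 and 49 in RDY237, 0 and 44 in RDY249, 0 and 35 in RDY247, and 0 and 9 in RDY236, and the raised share of all genes was 6.21%, 3.54%, 3.03%, 2.95% and 0.606% in that order. Against RDY234 under IAA they numbered 0 and 92 in RDY251, 1 and 72 in RDY237, 1 and 55 in RDY249, and 0 and 53 in RDY247, with 9.24%, 5.90%, 7.89% and 7.13% of all genes raised. Against RDY234 under DMSO, 5 were raised in RDY236, 1 lowered and 16 raised in RDY249, and 0 lowered and 37 raised in RDY251, with 0.332%, 3.03% and 2.05% of all genes raised. For the response against RDY234 the raised members were 79 in RDY251, 37 in RDY237, 31 in RDY249, 21 in RDY247 and 1 in RDY236, against 4.85%, 1.86%, 1.41%, 1.19% and 0.0195% of all genes, and in the first 4 of these the lowered ones were 0. In total reads, TMM raised 79 in RDY251, 39 in RDY249, 34 in RDY237 and 31 in RDY247 (8.71%, 3.50%, 3.13% and 3.36% of all genes), and lowered 0 in RDY237 and RDY251. The calls of the falls of FPR1 in RDY236, of NCE103 in RDY237, RDY247 and RDY249 and of ERG9 in RDY251 were lost.

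TMM also turned the sign of single genes. In RDY251 the log2 T>C changes became 1.71 for HBN1, 1.74 for LYS20, 2.43 for PST2, 1.35 for SER3, 1.31 for HAC1, 2.76 for AAD6, 1.49 for TRX2, 2.59 for ENO1, 0.98 for ENO2, 0.78 for KAR2, 2.77 for TDH1, 2.07 for FBA1, 1.72 for ECM4, 1.66 for UBI4 and 1.17 for HOR7, and the total read changes 0.40 for HNT1, 1.39 for TRX2 and 0.53 for VID27. The T>C changes became 0.35 for KAR2 and 0.92 for FBA1 in RDY237 and 1.54 for HOR7 in RDY249. TRX2 in RDY234, at 0.06, ran from -0.01 without DMSO replicate B or IAA replicate A to 0.17 without DMSO replicate A.

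Other settings moved a few small counts. DESeq2 gave 0 members lower under IAA and 1 higher under DMSO in RDY235 against RDY234. A mean count of at least 1 and the summed S. pombe reads each gave 1 member lower in RDY236 under IAA, and the latter also 2 raised in RDY247 and 6 lowered responses in RDY236. Summed S. pombe T>C reads gave 14 lowered in RDY247, and members without overlapping intervals 2 lowered in RDY236. A minimum of 500 T>C reads left 61 of the 100 members eligible, and these were bound to be chosen again.

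The replicate letters share only a number: correlations of deviations between DMSO and IAA libraries of the same letter ran from -0.074 to 0.124. With the letter as a replicate block, 1 member was lower in RDY236 than in RDY234 under IAA and 0 were lowered in total reads in RDY237. The block moved no other count by over 1.5 times.

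Leaving out 1 library at a time gave ranges. For IAA against DMSO these were 0 to 1 raised in RDY235, 0 to 10 lowered and 1 to 3 raised in RDY236, 7 to 15 lowered and 1 to 3 raised in RDY247, and 1 to 2 raised in RDY249. Against RDY234 under IAA, 0 to 1 were lower in RDY235 and in RDY236 and 8 to 17 in RDY249. Under DMSO, 4 to 25 were higher in RDY236 and 6 to 19 in RDY237, and 0 to 1 lower in RDY247 and 2 to 6 in RDY251. Lowered responses ran from 0 to 1 in RDY235, 0 to 9 in RDY236 and 7 to 17 in RDY247, and members lowered in total reads from 0 to 1 in RDY237 and RDY249 and 1 to 3 in RDY251. The other 738 alternative counts stayed within 1.5 times the reported count. Over the genes named, 23 of the alternative values changed sign, 53 lost a call, 11 gained one and 1223 did neither. Depth limits the most affected groups, as the 13141 member T>C reads of RDY73 IAA replicate B are the fewest.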
